A study of Mus musculus with 2 samples.

Results

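Ciliated airway cells were taken from a single-cell RNA sequencing study of mouse lungs given silica, as the cells in which 3 or more of 5 genes of the motile cilium (Foxj1, Ccdc153, Dynlrb2, Tmem212 and Rsph1) had at least 1 read. The rule was applied to cells with 200 or more genes read and with 25% or less of their reads from mitochondrial genes. It kept 270 ciliated cells of 32445 cells in all, 133 of 15218 in the CCR2KO library and 137 of 17227 in the WT library. Both groups were C57BL/6 mice that received silica at 400 mg/kg into the trachea and whose lungs were taken on day 3, 7 or 21. The CCR2KO group carried CCR2-/-, the loss of a receptor that draws monocytes out of the bone marrow, and the WT group did not. All mice had silica, so no comparison with untreated lungs was made. Lungs were digested with Liberase and DNase, cells were taken from the middle layer of a Percoll gradient and stained with hashtag antibodies, and the suspensions were pooled and captured on the BD Rhapsody system, with 1 library per genotype. The CCR2KO library held 8 hashtags and the WT library 9, here used as replicates. Sex, age and the day and animal of a hashtag are not given in the sources used here, so p-values measure the spread between tagged suspensions, which may be technical, and days were not compared. Genotype and library cannot be told apart, because each genotype was 1 library.

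Multiciliated cells line the conducting airways and carry many motile cilia, which beat together to move mucus and trapped particles towards the throat. A motile cilium is built on doublet microtubules to which dynein arms, radial spokes and a central pair are attached, and its parts are carried to the tip by intraflagellar transport. The programme is switched on by Foxj1 with Rfx and p73 factors, and the basal bodies are copied in short-lived structures called deuterosomes. Club cells, which secrete Scgb1a1, are the neighbouring airway cells and the known source of new ciliated cells in mouse bronchioles.

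The tables hold whole-number counts, taken as reads from their size. Whether molecular identifiers were used is not given in the sources used here, so intervals on shares of cells cover counting error only. Ciliated cells had a median of 62223 reads in CCR2KO and 52727 in WT, with ranges of 4852 to 520347 in CCR2KO and 6351 to 348232 in WT. Reads summed over the ciliated cells of a tag came to 693304 to 2060236 in CCR2KO and 537078 to 2200059 in WT. The deleted gene Ccr2 was at 1.43 to 4.40 CPM (reads of a gene scaled to the same total in every tag) over the tags of the other kept CCR2KO cells and at 53.5 to 102 CPM over those of the other kept WT cells, and in ciliated cells it had 1 read in 1 CCR2KO cell and 81 reads in 12 WT cells. Whether the counted stretch of Ccr2 lies in the deleted part is not given in the sources used here. Before any cell was left out, 342 barcode numbers occurred in both libraries. No library was left out.

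The label was checked on 142 genes of cilium parts that the rule did not use. A ciliated cell had a read of a median of 49 of them, with a range of 2 to 108, and 7 of the 270 cells had fewer than 10. The median was 44 in CCR2KO and 53 in WT ciliated cells. All other kept cells had a median of 3 and a maximum of 41. Members with exactly 3 rule genes, just inside the threshold, had a median of 26 cilium genes (33 cells). Cells with 2 rule genes, just outside, had a median of 10 (77 cells). The median was 40 with 4 rule genes (57 cells) and 55.5 with all 5 (180 cells). Cells at the threshold were not uniform. The 21 CCR2KO cells with 3 rule genes spanned 2 to 52 cilium genes, and the 12 WT cells 7 to 61.

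**Figure D1:**
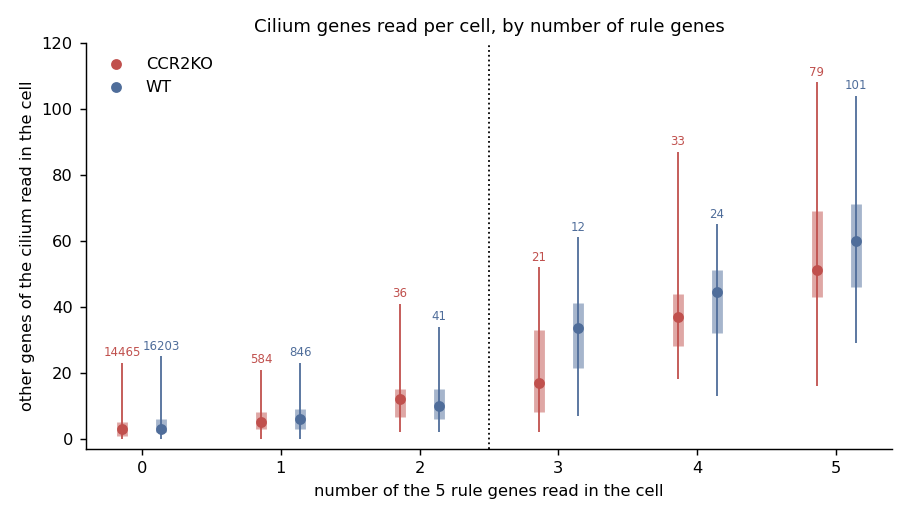
Number of cilium genes outside the rule that were read in a cell (y axis), by how many of the 5 rule genes were read (x axis), for CCR2KO (red) and WT (blue). Points are medians, thick bars quartiles, thin lines the full range, and the small numbers count cells; the dotted line is the threshold of the rule. Cells with 5 rule genes had medians of 51 in CCR2KO and 60 in WT, against 3 in cells with no rule gene of either genotype.

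The 5 rule genes, whose values chose the cells, were read in 96.3% (Foxj1), 95.6% (Dynlrb2, a dynein light chain), 91.9% (Ccdc153, a dynein regulatory complex protein), 89.3% (Tmem212, a membrane protein) and 81.5% (Rsph1, a radial spoke head protein) of ciliated cells. The genes read in most ciliated cells numbered 846, the rule genes included. From these, the 25 with the highest ratio of CPM in ciliated cells over CPM in all other kept cells were taken. All levels of genes in ciliated against other cells are descriptions with no test, since cilium genes chose the cells. Sntn, which encodes sentan of the ciliary tip (chromosome 14, 13670876 to 13683148, GRCm38.p6), stood first. It was read in 186 of 270 ciliated cells (68.9%, exact binomial 95% interval 63.0 to 74.4%), against 0.410% of alveolar type 2 cells and 0.249% of all other kept cells. Its ratio was 1809. Ciliated and alveolar type 2 cells had similar depth, with alveolar type 2 medians of 52418 reads in CCR2KO and 52788 in WT, so the share in alveolar type 2 cells, which lack motile cilia, gives the level of stray reads at a like depth.

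Among the other genes of this ranking, Efcab10 had a ratio of 1362, Gm19935 of 1276, Fam216b of 1196 and Cfap206, a protein at the base of the radial spokes, of 1006. Agr3, a protein disulfide isomerase known to bear on ciliary beat, had a ratio of 977 and was read in 51.1% of ciliated cells. Cdhr3, a cadherin known in humans as the receptor of rhinovirus C, was read in 67.0% of ciliated cells, in 0.746% of alveolar type 2 cells and in 0 of the 101 club cells. Of the 25 genes, 9 were in the lists of cilium parts used here and 3 in the rule. The remaining ones included several with clone names, such as 1600029I14Rik (ratio 950), 3300002A11Rik (ratio 874) and AU040972, read in 87.8% of ciliated cells.

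Dynein heavy chains are the motors that bend the cilium. Dnah5, of the outer arm (chromosome 15, 28154854 to 28472045), was read in 53.0% of ciliated cells and 0.224% of alveolar type 2 cells. Dnah9, also of the outer arm, was read in 28.2% and 0.075%, and Dnah11 in 21.9% and 0.224%. Of the inner arm, Dnah6 was read in 48.2% of ciliated cells and Dnah12 in 40.7%. Of the 14 heavy chains in both tables, 12 had a ratio of 10 or more. The remaining pair were Dnah8 and Dnah17. Dnah8 was read in 3 ciliated cells (1.11%), against 1.08% of all other kept cells, with a CPM ratio of 0.0434, and Dnah17 was read in 1 ciliated cell, with a CPM ratio of 0.301. Reads of Dnah7a, Dnah7b and Dnah7c, near-identical genes, cannot be assigned with confidence and were at 14.8%, 19.6% and 20.4% of ciliated cells.

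The light and intermediate chains, docking proteins and assembly factors fell into a shared and a ciliary group. Dynll1 and Dynlt1b, light chains also used by cytoplasmic dynein, were read in 93.0% and 90.7% of ciliated cells, and also in 64.9% and 31.9% of alveolar type 2 cells. Ccdc39, which with Ccdc40 sets the spacing along the doublet, was read in 61.9% and 0.559%. Dnali1 was read in 48.9% and 0.336%, and Drc1, of the dynein regulatory complex, in 47.4% and 0.224%. Of the 29 genes of this list outside the rule, 22 had a ratio of 10 or more and 16 of 100 or more.

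Radial spoke and central pair genes were read in a median of 42.2% of ciliated cells and 0.342% of all other kept cells. Nme5 was read in 73.0% of ciliated cells, the adenylate kinase Ak7 in 57.8%, the spoke head genes Rsph9 and Rsph4a in 56.3% and 50.4%, and the central pair gene Spag6l in 47.8%. Doublet microtubule genes had a median of 40.4%. Fam183b and 1700007K13Rik were read in 79.3% and 78.9% of ciliated cells, Cfap126 in 77.8% and Ccdc113 in 69.3%. The tubulins Tuba1a and Tubb4b and the tubulin-binding Tppp3 were read in 98.2%, 93.0% and 95.2% of ciliated cells, but also in 56.6%, 49.3% and 17.4% of alveolar type 2 cells.

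Intraflagellar transport and BBSome genes, which primary cilia also use, stood apart less. All 36 were measured, 13 had a ratio of 10 or more and 0 a ratio of 100 or more, and the median ratio was 7.86. The medians were 150 for dynein heavy chains, 137 for the other dynein genes, 304.5 for radial spoke and central pair genes and 172 for doublet genes. Traf3ip1 was the transport gene with the highest ratio of those read in most ciliated cells, 40.2, and was read in 55.6% of ciliated cells and 2.31% of alveolar type 2 cells. Ift88 was read in 44.8% and 3.84%, and Ift20, which also works at the Golgi, in 57.8% and 44.1%.

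**Figure D2:**
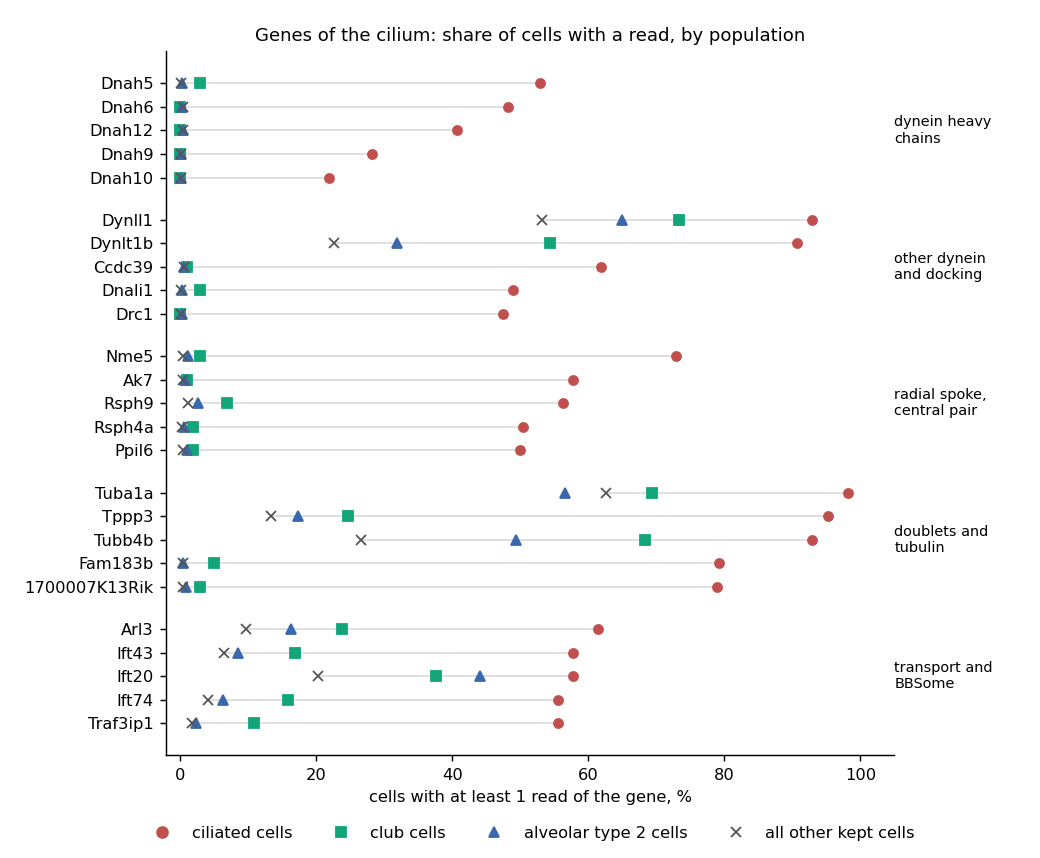
Share of cells with at least 1 read (x axis, percent) of the 5 genes read in most ciliated cells of each list of cilium parts (y axis; rule genes left out), both genotypes pooled. Dnah5 was read in 53.0% of ciliated cells and 0.211% of all other kept cells, while Dynll1 was read in 93.0% and 53.2%.

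Promoters of cilium genes were searched for the X-box, the site that Rfx factors bind, since these genes were read together in the same cells. The motifs were sought on both strands of the 300 bases from 250 before to 50 after the start of each gene (RefSeq sequences, GRCm38.p6). The single site was GTTGCC. The paired site was GTNNCC followed, after 0 to 3 bases of any kind, by NGNAAC; a paired site can contain a single site. Of the 116 cilium genes with a sequence, 45 (38.8%) held a paired site, against 5.94% of all 27025 genes. Among the lists of other genes, the lowest were 0 of 15 airway secretory and 0 of 20 epithelial injury genes. The highest was 2 of 11 multiciliated transcription factors (18.2%), and nuclear genes of the respiratory chain had 3 of 19 (15.8%). The single site was in 52 (44.8%), against 14.1% of all genes. Paired sites were in 11 of 20 radial spoke and central pair genes, 11 of 21 other dynein genes, 13 of 31 doublet genes, 8 of 31 transport genes and 2 of 13 dynein heavy chains. The forkhead motif GTAAACA was in 7 of 116 cilium genes (6.03%), against 4.05% of all genes. These are matches of letters, not measured binding. A gene with several listed starts was counted if any of its windows held the motif. The following 60-base stretches lie before the listed start of 5 genes and are printed in the direction of the gene, to show how the site varies around a shared core; capitals mark the paired site. In Cfap206 and Cfap45 the site fits the pattern on the opposite strand.
Dynlrb2: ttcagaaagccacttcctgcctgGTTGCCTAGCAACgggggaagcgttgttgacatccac
Fam183b: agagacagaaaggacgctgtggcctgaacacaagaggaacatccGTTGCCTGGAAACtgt
Cfap206: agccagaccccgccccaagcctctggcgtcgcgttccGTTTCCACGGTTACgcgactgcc
Enkur: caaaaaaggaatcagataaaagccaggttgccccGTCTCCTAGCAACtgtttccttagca
Cfap45: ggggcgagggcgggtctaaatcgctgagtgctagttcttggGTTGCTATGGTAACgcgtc
They lie at chr8:116504941-116505000 on the plus strand (Dynlrb2), chr11:58801961-58802020 on the minus strand (Fam183b), chr4:34730207-34730266 on the minus strand (Cfap206), chr2:21205366-21205425 on the minus strand (Enkur, an axonemal adaptor) and chr1:172521070-172521129 on the plus strand (Cfap45, a protein inside the doublet). The listed starts of Fam183b and Cfap206 lie inside the extent of the gene's own record, so these 2 stretches overlap that record. The first base of the site lay 51, 16, 23, 26 and 19 bases before the listed start in that order. These genes were read in 95.6%, 79.3%, 61.9%, 60.0% and 47.8% of ciliated cells and in 1.34%, 0.370%, 0.202%, 0.513% and 0.326% of all other kept cells.

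Of the factors that build the programme, Foxj1 (chromosome 11, 116330704 to 116335499) belongs to the rule. Trp73, which encodes p73, was read in 60 ciliated cells (22.2%), 0.990% of club cells and 0.075% of alveolar type 2 cells. Myb, which acts while basal bodies are made, was read in 25.9% of ciliated cells. Rfx2 and Rfx3, which bind the X-box, were read in 70 and 35 of the 270 ciliated cells, against 1.75% and 1.90% of alveolar type 2 cells. Sox2, a factor of the airway as a whole, was read in 51.5% of ciliated, 33.7% of club and 0.932% of alveolar type 2 cells. Gmnc, an early inducer of the lineage, was read in 2 ciliated cells (0.741%, exact binomial 95% interval 0.0898 to 2.65%), against 5.94% of club and 0.559% of alveolar type 2 cells, so its share in ciliated cells was not above that of stray reads.

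Genes of other functions were also read in ciliated cells, and some of them were common in club cells too. Cyp2s1, a cytochrome P450, was read in 80.0% of ciliated, 7.92% of club and 1.12% of alveolar type 2 cells. Cd24a, a surface glycoprotein, was read in 97.8% of ciliated cells and 82.2% of club cells, and the lipid-transfer gene Sec14l3 in 97.8% and 55.5%. Aldh1a1, a retinaldehyde dehydrogenase, was read in 90.4% of ciliated, 80.2% of club and 11.7% of alveolar type 2 cells. The nucleotide kinase Nme9 was read in 72 ciliated cells (26.7%) and in 0 club and 0 alveolar type 2 cells. Genes of antigen presentation had a median ratio over all other kept cells of 0.283 (20 genes) and ribosomal protein genes of 0.516 (24 genes), against 0.616 over all 22970 genes outside the rule.

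A small subset of ciliated cells carried the genes of deuterosomes. With 3 or more of Deup1, Ccno, Cdc20b, Mcidas and Plk4 required (a threshold chosen after the values were seen), 9 ciliated cells from 6 tags were counted. There were 6 of 133 in CCR2KO (4.51%, exact binomial 95% interval 1.67 to 9.56%) and 3 of 137 in WT (2.19%, 0.454 to 6.27%), and the intervals overlap. No read of these 5 genes was found in 114 CCR2KO and 118 WT ciliated cells. The subset was chosen on these 5 genes, and what follows describes other genes in it with no test. Foxj1, a rule gene, was at 2371 CPM in the 9 cells and 966 CPM in the other 261. Myb was read in 9 of 9 and in 23.4% of the others. Shisa8 was read in 7 of 9 and in 0 of 261. The centriole assembly genes Cep152, Stil and Sass6 were read in 4, 4 and 7 of the 9, against 2, 1 and 40 of the 261.

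Genes of the axoneme and ciliary tip were not uniform in these 9 cells; those named here were chosen after their values were seen. Sntn was read in 1 of 9, against 185 of 261 (70.9%). Dnah5 was read in 2 of 9 against 141 of 261, and Dnah9 in 1 of 9 against 75 of 261. Of the rule genes, Tmem212 and Ccdc153 were each read in 4 of 9, against 90.8% and 93.5% of the others, while Rsph1 and Dynlrb2 were read in 9 of 9, against 80.8% and 95.4%. Tubb4b was read in 9 of 9 and was at 1804 CPM in the 9 cells and 1773 CPM in the others. The 9 cells had a median of 158458 reads and of 62 cilium genes, both above the medians of all ciliated cells. Of cell cycle genes, Cdk1 was read in 6 of 9, Top2a in 5 and Mki67 in 1, against 6.13%, 9.58% and 6.13% of the others. The tables list Deup1 a second time under its older symbol Ccdc67, and 15 of the 23 ciliated cells with a Ccdc67 read also had a Deup1 read. How the reads were divided between these 2 rows is not given in the sources used here. The counts of the subset used the Deup1 row alone, with 159 reads in 19 ciliated cells, while the Ccdc67 row held 894 reads in 23. How the counts would change with both rows was not tested.

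A larger subset carried club cell markers. Scgb1a1, the main secretory protein of club cells, was read in 268 of 270 ciliated cells but also in 94.6% of alveolar type 2 cells and 78.9% of all other kept cells, so a read of it alone does not mark a cell here. With 4 or more of 5 club markers (Scgb1a1, Scgb3a2, Cyp2f2, Cldn10 and Gabrp), 46 ciliated cells were counted, 27 in CCR2KO (20.3%) and 19 in WT (13.9%). The share per tag was 19.9 ± 10.7% in CCR2KO (SD, n = 8) and 13.6 ± 6.78% in WT (SD, n = 9), a difference that did not pass a two-sided exact permutation test over tags (p = 0.164).

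In these 46 cells Scgb1a1 made up a median of 43.5% of all reads, against 0.138% in the other 224 ciliated cells and 36.8% in club cells. They had a median of 48.5 cilium genes outside the rule read, against 49 in the other ciliated cells and 7 in club cells. Sntn, outside the rule, was read in 73.9% of them and Dnah5 in 37.0%, against 67.9% and 56.2% of the other ciliated cells and 2.97% of club cells for each gene. Since the rule chose the 46 cells on cilium genes, the distance to club cells is a description. On the CPM scale, on which Scgb1a1 was at 418000 in the 46 cells and 24550 in the other 224, Foxj1, a rule gene, was at 383 CPM in the 46 and 1453 CPM in the 224. Muc5b, a gel-forming mucin, was read in 7 of 46 (15.2%), 1 of 224 and 37.6% of club cells. Their depth was high, with a median of 179419 reads against 48532 in the other ciliated cells, and the doublet score called 9 of 46 of them and 25 of the other 224. Whether these were single cells or pairs of a ciliated and a club cell was not tested.

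**Figure D3:**
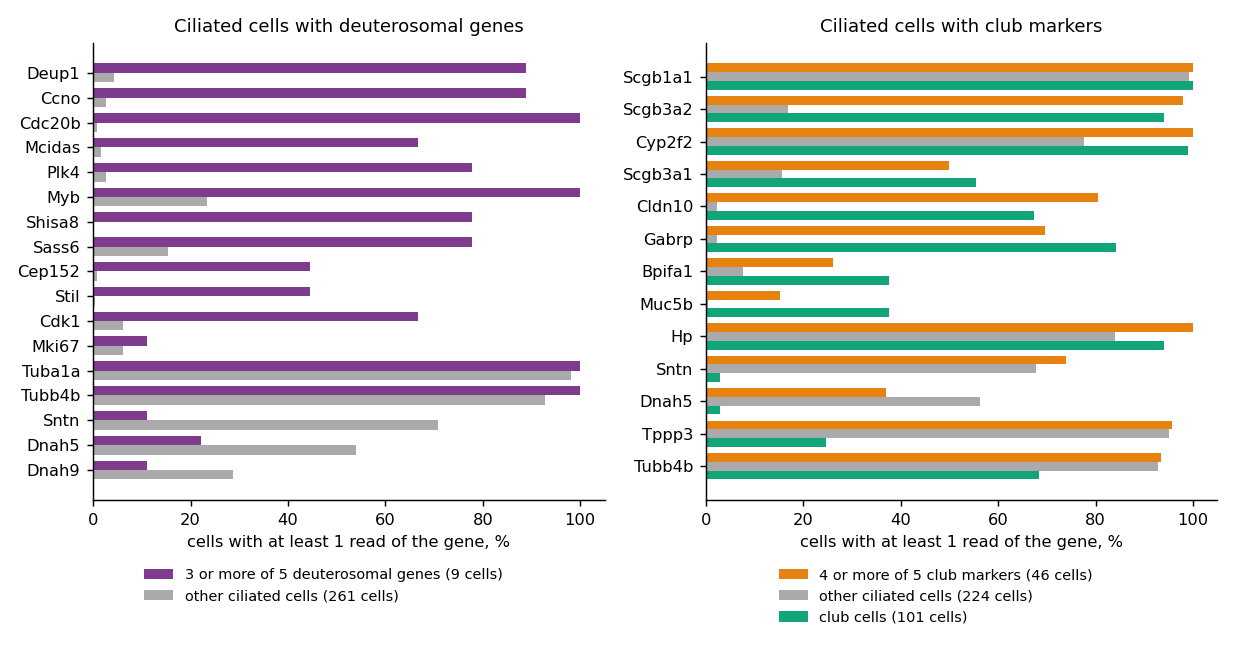
Share of cells with at least 1 read of a gene (x axis, percent). Left, the 9 ciliated cells with 3 or more of 5 deuterosomal genes (purple) above the other 261 (grey): Shisa8 was read in 7 of 9 and 0 of 261, Sntn in 1 of 9 and 185 of 261. Right, the 46 ciliated cells with 4 or more club markers (orange), the other 224 (grey) and 101 club cells (green): Sntn was read in 73.9% of the 46 and 2.97% of club cells. Rule genes are not drawn, and the 5 markers that define each subset are high in it by choice.

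Reads of other cell types were also present in ciliated cells. The summed level of 6 haematopoietic markers (Ptprc, Laptm5, Coro1a, Tyrobp, Cd3e, Cd79a) was 7.22 to 216 CPM over CCR2KO tags and 12.4 to 810 CPM over WT tags of ciliated cells, with all 6 read in both. In all other kept cells it was 953 to 1786 CPM over CCR2KO tags and 1508 to 2730 CPM over WT tags. The 5 endothelial markers summed to 5.83 to 128 CPM in CCR2KO and 6.83 to 152 CPM in WT ciliated cells. The 5 club markers summed to 41660 to 430100 CPM in CCR2KO and 34930 to 239500 CPM in WT. The basal cell factor Trp63 was at 0 in all 270 ciliated cells. A pair or more of haematopoietic markers was read in 19 CCR2KO (14.3%) and 48 WT (35.0%) ciliated cells. Alveolar type 2 markers ran the other way, with 4 or more of 5 read in 21 CCR2KO (15.8%) and 10 WT (7.30%) ciliated cells, and a summed median of 1414 CPM over CCR2KO tags and 507 CPM over WT tags. A pair or more of stromal markers was read in 79 CCR2KO (59.4%) and 82 WT ciliated cells, with summed medians of 50.3 CPM over CCR2KO tags and 128.5 CPM over WT tags. Of all ciliated cells, the doublet score called 8 of 133 in CCR2KO and 26 of 137 in WT, and its threshold, the highest 6% of scores in each library, was chosen after seeing the data.

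The first comparison of CCR2KO with WT was the share of kept cells that were ciliated. It was 0.577, 0.810 and 1.32% (lowest, median and highest tag) in CCR2KO and 0.417, 0.824 and 1.20% in WT, on 11 to 25 and 8 to 22 ciliated cells per tag. The ranges overlapped almost fully. The mean was 0.880 ± 0.264% in CCR2KO (SD, n = 8) and 0.798 ± 0.287% in WT (SD, n = 9), and the difference of 0.0820 percentage points did not pass a two-sided exact permutation test over tags (p = 0.546). The direction was not stable: with all 5 rule genes required the share was 0.518% in CCR2KO and 0.588% in WT (exact permutation p = 0.394), and as a share of epithelial cells it was 5.22% in CCR2KO and 5.86% in WT (exact permutation p = 0.497). Pooled over tags, the shares were 0.874% in CCR2KO (exact binomial 95% interval 0.732 to 1.04%) and 0.795% in WT (0.668 to 0.939%). Fewer ciliated cells in the lung and fewer of them collected cannot be told apart in a share.

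Ciliated cells of CCR2KO lungs had fewer genes read at equal depth. With each cell thinned to 5000 reads, the mean per tag was 1061 ± 51.8 genes in CCR2KO (SD, n = 8) and 1212 ± 108 genes in WT (SD, n = 9), a ratio of 0.875 (two-sided exact permutation test, p = 0.00132). Tags ran from 985.5 to 1134 genes in CCR2KO and from 1059 to 1418 genes in WT, so the groups overlapped. A single CCR2KO cell with fewer than 5000 reads was left out. Without thinning the means were 2142 genes in CCR2KO and 2473 genes in WT. The same held beyond ciliated cells: all other kept cells had 738 ± 26.9 genes in CCR2KO and 850 ± 50.3 in WT, a ratio of 0.868 (p = 8.227e-05, the smallest this exact permutation test can give), and alveolar type 2 cells 894 ± 53.7 in CCR2KO and 987 ± 59.5 in WT, a ratio of 0.906 (exact permutation p = 0.00551).

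**Figure D4:**
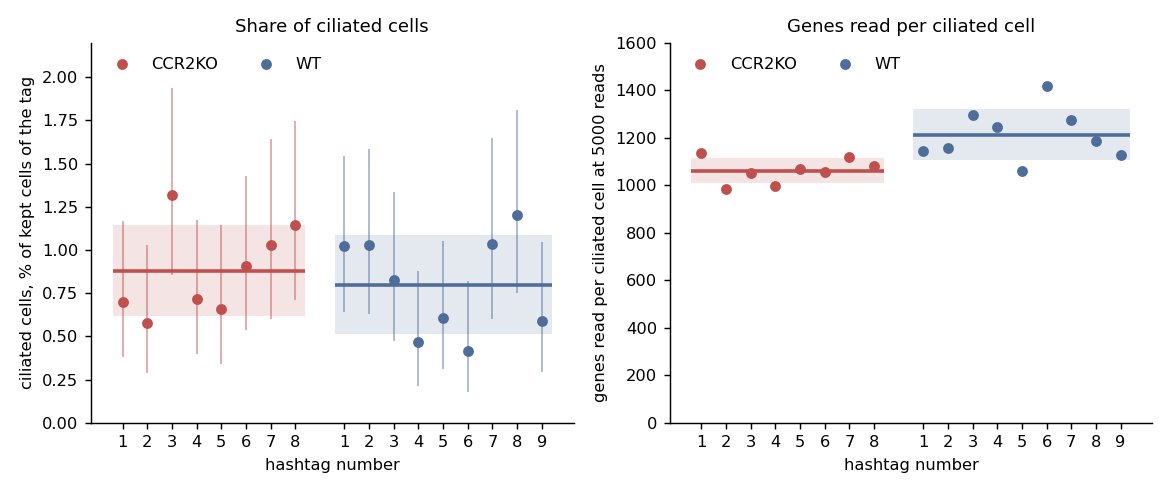
Left, ciliated cells as a percent of the kept cells of each hashtag, with exact binomial 95% intervals; right, mean number of genes read per ciliated cell at 5000 reads. CCR2KO tags are red and on the left, WT tags blue; lines are means over tags and bands 1 SD. Shares overlap, with means of 0.880% in CCR2KO and 0.798% in WT, and gene numbers average 1061 in CCR2KO and 1212 in WT.

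Expression was then compared on reads summed per tag over the ciliated cells, with edgeR's quasi-likelihood test and Benjamini-Hochberg adjustment over 7441 genes. Values per tag below are CPM scaled by TMM, a factor per tag that centres the genes. Across all genes, 1 passed an adjusted p of 0.05, which is 0.0134% of the genes tested, and it was higher in CCR2KO. It was Igha, the constant region of immunoglobulin A heavy chains (chromosome 12, 113256204 to 113260236), a product of plasma cells. At an unadjusted p under 0.05 there were 109 genes higher (1.46%) and 100 lower (1.34%) in CCR2KO, 2.81% of all.

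Igha had 10.7, 21.4 and 19000 CPM (lowest, median and highest tag) in CCR2KO ciliated cells and 0, 1.68 and 3.76 CPM in WT ciliated cells. The groups did not overlap, and the highest CCR2KO tag lay far above the other 7. The log2 difference was 10.14 (SE 1.63, edgeR adjusted p = 0.00861). Of 17848 Igha reads in CCR2KO ciliated cells, 17565 came from 1 cell of tag 2. That cell also had 14911 reads of Igkc and 4725 of Jchain, both plasma cell genes, beside 35 reads of Foxj1, 4 of Dynlrb2, 2 of Tmem212 and 16 cilium genes in all. Without that tag the log2 difference was 3.88 and edgeR's adjusted p was 0.617, so edgeR's call rested on that tag. Igha also passed on all tags with DESeq2 (log2 difference 3.81, adjusted p = 9.604e-05), which was not run without tag 2. In edgeR with tag 2 included, it passed without a filter on low counts (10.18, adjusted p = 1.792e-05) and without doublet calls (10.43, adjusted p = 0.00378). With at least 10 cells per tag the log2 difference was as large, 9.97, at an edgeR adjusted p of 0.120. With 4 or more rule genes required, which leaves out the cell described, it was 3.54 (edgeR adjusted p = 0.263). Igha was also higher in all other kept cells of the library, at 387 to 6036 CPM over CCR2KO tags and 1.37 to 175 CPM over WT tags, and was read in 76 CCR2KO and 19 WT ciliated cells.

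Below the threshold, the 5 genes with the smallest p were Scand1, Epas1, Igkc, Rn28s1 and Ggnbp2. Epas1, which encodes the hypoxia factor HIF-2 alpha, had 122, 162 and 400 CPM (lowest, median and highest tag) in CCR2KO ciliated cells and 20.2, 48.2 and 124 CPM in WT ciliated cells, and the groups overlapped by 1 WT tag. Its log2 difference was 1.64 (SE 0.38, edgeR adjusted p = 0.403). It passed with DESeq2 (adjusted p = 0.00537), and in edgeR with doublet calls left out (adjusted p = 0.00528). Over the other kept cells its levels overlapped, at 439 to 955 CPM in CCR2KO tags and 367 to 889 CPM in WT tags. The difference between the genotype effect in ciliated cells and that in all other kept cells was 1.74 (SE 0.39, edgeR unadjusted p = 0.000125, adjusted p = 0.986).

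Ggnbp2 had 107, 143 and 189 CPM in CCR2KO ciliated cells and 16.2, 57.0 and 88.6 CPM in WT ciliated cells, groups that did not overlap (log2 difference 1.48, SE 0.39, edgeR adjusted p = 1.00; DESeq2 adjusted p = 0.00753). In the other kept cells Ggnbp2 was at 99.1 to 126 CPM over CCR2KO tags and 81.8 to 125 CPM over WT tags. Scand1, a SCAN domain gene, had 80.4, 130 and 237 CPM in CCR2KO and 171, 330 and 635 CPM in WT ciliated cells (log2 difference -1.25, SE 0.28, edgeR adjusted p = 0.403; DESeq2 adjusted p = 0.0171). Rn28s1, the 28S ribosomal RNA, had 530, 698 and 1017 CPM in CCR2KO and 803, 1170 and 1500 CPM in WT ciliated cells (log2 difference -0.74, SE 0.19, edgeR adjusted p = 0.998). Rn28s1 passed in edgeR without the 46 cells with club markers (-1.21, adjusted p = 0.00343) and with cells thinned to 5000 reads (-1.22, adjusted p = 0.0170). Scand1 and Rn28s1 were also lower across the other kept cells of the CCR2KO library, Scand1 at 67.2 to 108 CPM over CCR2KO tags and 145 to 172 CPM over WT tags, and Rn28s1 at 489 to 683 CPM over CCR2KO tags and 915 to 1207 CPM over WT tags, with no overlap between genotypes. Igkc, an immunoglobulin light chain, had 5.14, 16.6 and 16130 CPM in CCR2KO and 0, 27.4 and 112.5 CPM in WT ciliated cells (log2 difference 5.75, SE 1.45, edgeR adjusted p = 0.918); its median was lower in CCR2KO, and the log2 difference without tag 2 was -0.12. Among all genes tested, 3 had groups that did not overlap, Igha, Ggnbp2 and Prcc. Prcc, named after its values were seen, had 12.8 to 61.7 CPM in CCR2KO and 0 to 11.4 CPM in WT.

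No cilium gene passed the threshold between genotypes. Of 134 tested outside the rule, 0 were called by edgeR after adjustment, and 1 was higher and 2 lower at an unadjusted p under 0.05 (2.81% of all genes had one). Their median log2 difference was -0.07, against 0.00 over all genes. It was 0.07 without the 46 cells with club markers and 0.02 without CCR2KO tag 2. Spef1, of the central pair, had 206, 249 and 514 CPM in CCR2KO and 136, 150.5 and 265 CPM in WT (log2 difference 0.74, SE 0.25, edgeR adjusted p = 1.00). Tppp3 had 1428, 1963 and 2301 CPM in CCR2KO and 1840, 2745 and 3582 CPM in WT (log2 difference -0.46, SE 0.17, adjusted p = 1.00 in edgeR). Drc7, of the dynein regulatory complex, had 11.9, 63.1 and 152 CPM in CCR2KO and 62.3, 136 and 283 CPM in WT (log2 difference -1.06, SE 0.42, adjusted p = 1.00 in edgeR). The groups overlapped for all 3.

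The intervals show what these numbers of cells could resolve. The 95% interval of the log2 difference ran from -0.47 to 0.39 for Tuba1a, from -0.51 to 0.34 for Tubb4b, from -0.76 to 0.41 for Sntn and from -0.53 to 0.98 for Dnah5. The median distance from the estimate to the end of its interval was 0.94 over the tested cilium genes and 1.76 over all genes, on the log2 scale. In simulated data of the same depth, 6% of genes changed 2-fold, 38% changed 4-fold and 74% changed 16-fold were recovered, with 0 false calls among 7441 genes. The simulated counts were drawn per tag around 1 mean per gene, with the fitted spread between tags. They held no single cell rich in a gene and no shift between libraries, so the 0 false calls do not cover such cases. By part of the cilium, the median log2 difference was 0.08 for 12 dynein heavy chains, -0.03 for 29 other dynein genes, 0.02 for 22 radial spoke and central pair genes, -0.11 for 35 doublet genes and 0.04 for 36 transport genes. Of the doublet genes, 29 were negative and 6 positive, and 1 (Tppp3) had an unadjusted p under 0.05. That lean was not stable, with 17 negative and 18 positive without the 46 cells with club markers, and 19 negative and 16 positive without CCR2KO tag 2.

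**Figure D5:**
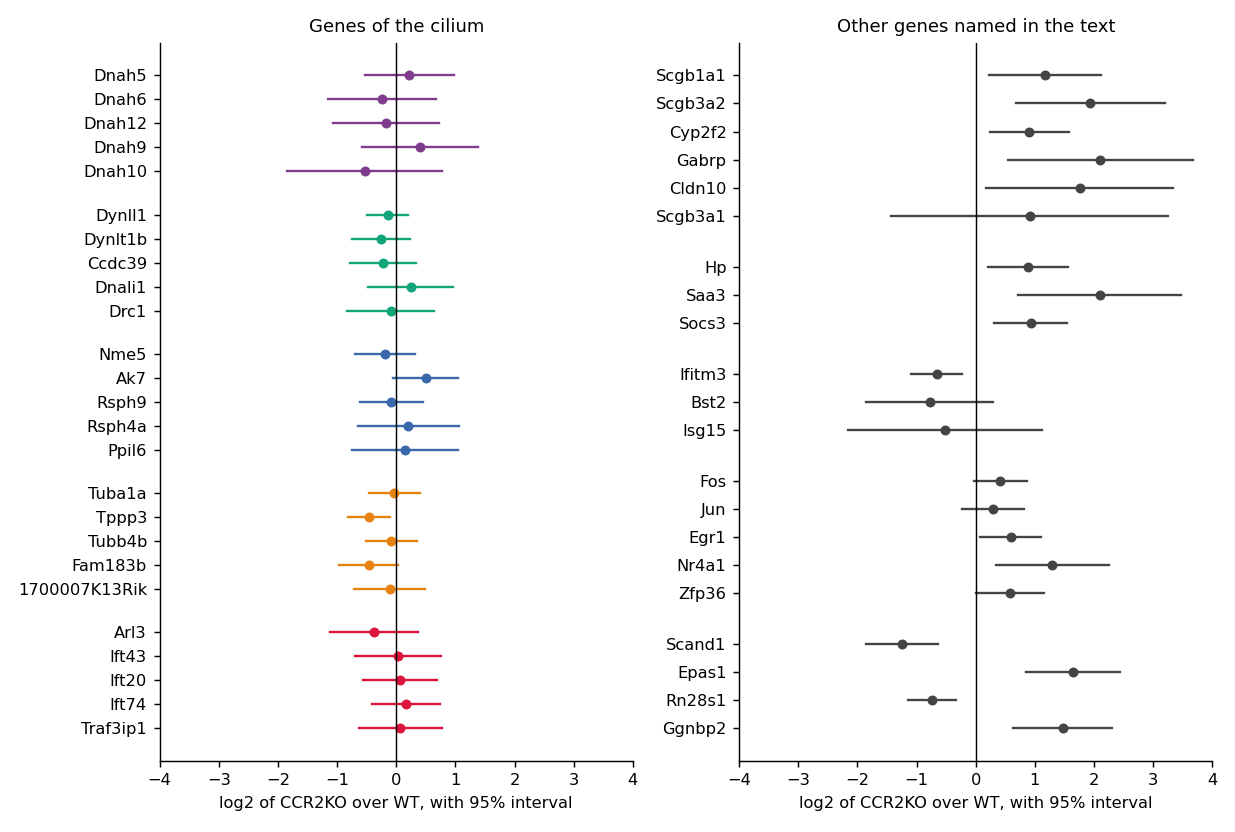
Log2 of CCR2KO over WT in ciliated cells with its 95% interval (x axis) from edgeR, for the same cilium genes as in the plot of shares by population (left) and for other genes named in the text (right; gaps separate airway secretory, acute phase, interferon and immediate early genes and the genes with the smallest p). The points of cilium genes lie between -0.53 and 0.50; no gene drawn passed the adjusted threshold.

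The genes of airway secretion were the list with the highest median log2 difference among the 18 lists, 0.52 over 18 genes tested. With edgeR, 0 passed the adjusted threshold, and 5 were higher in CCR2KO at an unadjusted p under 0.05, against 1.46% of all genes. These 5 were the club markers themselves. Scgb3a2 had 987, 7654 and 13740 CPM (lowest, median and highest tag) in CCR2KO ciliated cells and 1.25, 1546 and 4729 CPM in WT ciliated cells (log2 difference 1.94, SE 0.59, edgeR adjusted p = 1.00). Scgb1a1 had 35240, 190200 and 710400 CPM in CCR2KO and 28120, 81560 and 284200 CPM in WT ciliated cells (log2 difference 1.18, SE 0.45, edgeR adjusted p = 1.00). The groups overlapped for both. In all other kept cells Scgb1a1 was at 3994 to 13620 CPM over CCR2KO tags and 200 to 8119 CPM over WT tags, and Scgb3a2 at 143 to 618 CPM over CCR2KO tags and 2.46 to 84.2 CPM over WT tags with no overlap. The CCR2KO library also held 67 club cells, against 34 in the WT library. Without the 46 ciliated cells with club markers, the median was 0.67 over 13 genes tested. Of these, 2 were higher in CCR2KO at an unadjusted p under 0.05 in edgeR, against 70 of all 6505 genes. Fewer genes of the list were tested there, so this median and that over 18 genes cover unlike sets. The part of club cell reads in these values was not tested.

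Genes of inflammation and stress were in the same position, with no gene past the adjusted threshold in edgeR. Of 29 acute phase and mucosal defence genes, 4 were higher in CCR2KO at an unadjusted p under 0.05, against 1.46% of all genes. Saa3, an acute phase protein made by airway cells, had 20.4, 89.8 and 802 CPM in CCR2KO and 11.8, 43.7 and 166 CPM in WT ciliated cells (95% interval of the log2 difference 0.72 to 3.48, edgeR adjusted p = 1.00). Socs3, the feedback inhibitor of STAT3 signalling, had 222, 310 and 597 CPM in CCR2KO and 93.1, 150.5 and 346 CPM in WT ciliated cells (log2 difference 0.93, SE 0.29, edgeR adjusted p = 1.00). The median of the list was 0.21, and 0.00 without the 46 cells with club markers. Hp and Il13ra1 were the other 2 genes of the 4.

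Interferon response genes had the lowest median of the 18 lists, -0.66 over 21 genes tested, of which 16 were negative. At an unadjusted p under 0.05, 1 was lower in CCR2KO (1.34% of all genes were). It was Ifitm3, a membrane protein that blocks virus entry, with 538, 1072 and 1338 CPM in CCR2KO and 1037, 1558 and 2022 CPM in WT ciliated cells (log2 difference -0.66, SE 0.20, edgeR adjusted p = 1.00). The lean was not particular to ciliated cells. Over the tested genes of the list, the genotype effect in ciliated cells minus that in alveolar type 2 cells had a median of 0.66. Against all other kept cells the median was 0.41, so the effect was less negative in ciliated cells in both comparisons. Leukocytes express many of these genes, and the shares of ciliated cells with haematopoietic markers given above differed in the same direction. Their part in the result was not tested.

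Of 25 immediate early and dissociation stress genes, 23 were positive, 3 (Egr1, Nr4a1 and Zfp36) were higher at an unadjusted p under 0.05, and the median log2 difference was 0.42. Over all 7436 genes tested outside the rule, 3726 were positive and 3710 negative, and 1.46% were higher at that p. Nr4a1, an early response nuclear receptor, had 47.2, 203 and 458 CPM in CCR2KO and 8.61, 80.0 and 176 CPM in WT ciliated cells (log2 difference 1.29, SE 0.45, edgeR adjusted p = 1.00). The median was 0.27 without CCR2KO tag 2 and 0.24 without the 46 cells with club markers, where 0 genes had an unadjusted p under 0.05. Without CCR2KO tag 2, 23 of the 25 were still positive. With cells thinned to 5000 reads, 20 of 20 tested were positive (median 0.39). Of these, 6 were higher at an unadjusted p under 0.05 in edgeR, against 43 of all 1206 genes. DESeq2 gave a median of 0.43 and 6 genes higher at that p, against 184 of 7436. Over the tested genes of the list, the genotype effect in ciliated cells minus that in alveolar type 2 cells had a median of 0.65. Against all other kept cells the median was 0.45, so the effect was more positive in ciliated cells in both comparisons. Such genes are known to respond to tissue digestion, and handling of the pools cannot be told apart from genotype. The part of handling in these values was not tested.

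The other lists lay nearer to 0. The median log2 difference was 0.25 for 19 apical membrane and ion transport genes, 0.10 for 12 centriole and deuterosome genes, 0.07 for 30 detoxification genes, 0.06 for 18 antigen presentation genes, -0.01 for 24 ribosomal protein genes and -0.04 for 16 energy and nucleotide kinase genes. It was -0.08 for 14 multiciliated transcription factors, -0.12 for 26 nuclear genes of the respiratory chain and -0.13 for 24 epithelial injury genes. Edge cases at an unadjusted p under 0.05 were Gsta3 and Prdx6 of detoxification, higher in CCR2KO, and Ckmt1, Uqcr11, Rps29 and S100a10, lower in CCR2KO; adjusted p in edgeR was 1.00 for each. The scaling moved these values: with library totals in place of TMM, the median of all genes moved to -0.22, and 45 genes were higher and 245 lower at an unadjusted p under 0.05, against 109 higher and 100 lower with TMM. The medians of dynein heavy chains, radial spoke and central pair, transport, centriole, detoxification and antigen presentation genes were then negative. On that scale the cilium genes had a median of -0.26 and the secretory genes of 0.29, which is -0.04 and 0.51 relative to all genes. Relative to all genes on that scale, the interferon genes stood at -0.66 and the immediate early genes at 0.33.

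Whether the genotype difference in ciliated cells differed from that in other cells was tested as an interaction with the tag as a block, with edgeR and Benjamini-Hochberg adjustment. Against alveolar type 2 cells, 0 of 13433 genes were called, and 3.42% had an unadjusted p under 0.05. Against club cells, on 8 CCR2KO and 4 WT tags, 0 of 10422 were called (2.62% unadjusted). Against all other kept cells 0 of 17941 were called (4.21% unadjusted). For Rn28s1 the difference of effects against all other kept cells was 0.22 (SE 0.21), and for Scand1 it was -0.37 (SE 0.39). Against alveolar type 2 cells it was 1.87 (SE 0.47) for Ggnbp2 and 1.32 (SE 0.41) for Epas1, and against all other kept cells 1.62 (SE 0.48) for Ggnbp2. Against club cells it was -0.43 (SE 1.33) for Ggnbp2, the opposite sign, and 0.78 (SE 0.67) for Epas1. Scand1 had -2.43 (SE 1.15) against club cells and -0.23 (SE 0.38) against alveolar type 2 cells. The edgeR adjusted p was 0.986 or above for each of these.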

How the data were processed

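Lungs of silica-treated CCR2KO and WT mice were profiled on the BD Rhapsody system. The deposited tables hold whole-number read counts per gene and cell, and the authors' tools named in the submitters' processing notes were R 3.6.3, Bowtie2 2.4.2 and cutadapt 2.10, beside the mouse build GRCm38; the counting step and its use of strand are not given in the sources used here. Columns named as hashtag doublets or as not detected (1213) were not used. Counts were taken as reads, so amplification of a molecule may add to them, and the part of a transcript they cover is not given in the sources used here, so levels were not compared between genes. The 22975 genes in both tables were kept.

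Cells needed 200 genes and at most 25% mitochondrial reads. Club and alveolar type 2 cells were set by 4 or more of 5 markers each. Doublets were not removed; Scrublet's own threshold marked 0 CCR2KO cells, so the highest 6% of scores served as an alternative. Reads of ciliated cells were summed per hashtag with 5 or more of them (693304 to 2060236 reads in CCR2KO, 537078 to 2200059 in WT) and tested with edgeR 4.0.16 (quasi-likelihood, TMM, filterByExpr, Benjamini-Hochberg at 0.05) in R 4.3.3. Shares and gene numbers were compared with exact permutation tests over tags. DESeq2 1.42.0, other filters and scalings, marker numbers and left-out tags were alternatives. On simulated data edgeR recovered 60% of genes changed 8-fold. Genes named were the 25 with the highest ratio over other cells among those read in most ciliated cells, genes of the lists, called genes and the 5 uncalled genes with the smallest p. Members and gene lists were chosen with earlier results of these data known.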

Additional observations from a re-analysis of the deposited data

Results flagged for a closer look

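In 8 of 66 groups of tags checked for genes named above, 1 tag stood apart from the others by Dixon's criterion at 95%. For independent groups of normally spread values, chance alone meets it in about 1 of 20. The groups here were not independent, and some genes were named after their values were seen. The 8 groups can therefore not be set against that rate. In CCR2KO, the highest tag was at 19000 CPM for Igha and 16130 CPM for Igkc (the same tag, holding the cell rich in immunoglobulin reads), 399.8 CPM for Epas1, 597.0 CPM for Socs3 and 182.2 CPM for S100a10. In WT, the highest tag was at 11.39 CPM for Prcc and 282.9 CPM for Drc7, and the lowest at 827.3 CPM for Tuba1a.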

How the results depend on the processing

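The share of ciliated cells kept its direction under 7 alternatives and did not pass the test under any. It changed sign with all 5 rule genes required (-0.0705 percentage points) and with epithelial cells as the denominator (-0.647), and ran from 0.0197 to 0.132 with each tag left out in turn. The lower gene number per cell in CCR2KO held under all 4 alternatives and ran from -170.3 to -125.3 genes with each tag left out. The number of called genes was 1 with edgeR and 19 of 22970 with DESeq2 (5 higher, 14 lower in CCR2KO). Igha, Epas1, Ggnbp2 and Scand1 were among the 19. Of the 19, 7 were among the 7436 genes outside the rule that edgeR tested. The number was 2 without a filter on low counts and 2 without the cells with club markers (Igha, and Rn28s1 at -1.21). It was also 2 without Scrublet calls (Igha and Epas1, the second with an edgeR adjusted p of 0.00528). It was 0 with at least 10 cells per tag (197 of 7617 genes at an unadjusted p under 0.05), 0 with 4 or more rule genes (185 of 6957), 0 without cells holding reads of other cell types (50 of 2883, with 78 cells left) and 0 with the tag number as a replicate block (262 of 7238). Leaving out each tag gave 0 to 1, and 0 without CCR2KO tag 2. With members thinned to 5000 reads 1 gene was called, Rn28s1 (log2 difference -1.22), among 1206 tested. Igkc changed sign with DESeq2 (-0.13) and with 4 or more rule genes (-1.01), and ran from -0.12 to 6.10 with each tag left out. Same-numbered tags did not deviate together (correlations of -0.0085 to 0.0655, own number best for 3 of 8), so the numbers were not taken as pairs; with the block, the share differed by 0.0557 and the gene number by -161.6. Interaction counts stayed 0 under every alternative run. Where a sign or call changed, the cause was not tested. Depth and the spread between tags limit this comparison: at 8 to 25 ciliated cells per tag, most 2-fold changes went undetected in simulated data.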
